A study of Mus musculus with 4 samples.

Results

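The regions described here are places inside introns where both control libraries of mouse adipose tissue had a peak of open chromatin and neither library from the bisphenol A (BPA) lineage had one. They are called control-only intronic regions. They were chosen by measured values, the presence or absence of a called peak in each of 4 libraries, so that the split between groups describes how they were chosen and is not a result. The 4 peak lists were pooled on chr1 to chr19, and overlapping peaks were merged into 144198 regions. A region was kept as distal and intronic when it lay more than 500 bp from every curated RefSeq start site and its midpoint fell in an intron of a curated transcript (mm10). This left 64531 distal intronic regions, of which 3474 were control-only, or 5.38% of those examined. The opposite pattern, peaks in the BPA pair and none in the controls, was held by 6976 regions, or 10.8%.

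Introns of mammalian genes hold many of the enhancers that set when and where genes are transcribed, both of the host gene and of other genes nearby. Enhancers are opened by transcription factors that displace nucleosomes. In ATAC-seq a transposase cuts such open DNA and attaches sequencing adapters, so that stacked reads mark accessible sites. Adipose tissue mixes lipid-filled adipocytes with progenitors, vessels, nerves, immune cells and, on visceral depots, mesothelium. In such bulk tissue, fewer cells of a type and less open chromatin per cell cannot be told apart.

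Libraries came from visceral adipose of 8-week-old CD-1 mice, an outbred stock, prepared with the Omni-ATAC protocol on isolated nuclei. Control animals (control 1 and control 2) descended from dams given sesame oil alone. BPA animals (BPA 1 and BPA 2) descended from dams injected daily with 50 mg/kg BPA from embryonic day 7.5 to 13.5. The animals sampled were untreated descendants, whose generation is named differently by the labels and by the study's text, and neither sex nor batch was labelled. A batch that follows the lineage cannot be told apart from it, and with 2 libraries per group an exact two-sided permutation test cannot go under 0.333, so no test between groups was run. The labels do not say whether the libraries of a group came from different families, and intervals below cover counting error only.

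The lists differed in length and depth. They held 82665 and 88911 peaks in controls and 72375 and 98060 in BPA libraries. The lowest local background of a library, a rough measure of depth, was 2.85 and 2.70 overlapping reads in controls, 1.16 in BPA 1 and 3.80 in BPA 2. All 7 adipocyte promoters checked, such as Adipoq and Plin1, had a peak in every library, and no hepatocyte promoter of 3 had one. Endothelial promoters with a peak numbered 2 of 6 in each control and 6 of 6 in each BPA library.

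Sequence is shown first for regions on which the account turns. The control-only regions were ranked by the worse of their percent ranks by q-value in both control lists, and the windows below are 200 bases of the mm10 plus strand centred on the stronger summit. Capitals mark matches to the CTCF, GATA, TEAD, NFI, C/EBP and AP-1 motifs, which are described further on with others that are not marked. The CTCF motif was searched by name and its pattern is not printed. The intronic region of Klhl32, a kelch-like family gene, is shown because it ranked best (window chr4:24720947-24721146), and that of Ascc3, a helicase subunit, because it ranked next (chr10:50657435-50657634). Dlc1, a GTPase-activating protein (chr8:36679974-36680173), Art3, an ADP-ribosyltransferase family member (chr5:92390723-92390922), and Mtrr, which reactivates methionine synthase (chr13:68577990-68578189), are shown as the best-ranked regions with a GATA, TEAD and NFI match. Nlgn1, a neurexin partner at synapses (chr3:25903337-25903536), and Ptprd, a receptor tyrosine phosphatase with the most control-only regions (chr4:77558915-77559114), stand for the neural adhesion genes.
Klhl32: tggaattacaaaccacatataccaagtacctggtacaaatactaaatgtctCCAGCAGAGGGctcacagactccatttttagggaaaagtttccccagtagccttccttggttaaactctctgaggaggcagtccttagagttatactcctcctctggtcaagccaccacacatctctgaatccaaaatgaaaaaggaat
Ascc3: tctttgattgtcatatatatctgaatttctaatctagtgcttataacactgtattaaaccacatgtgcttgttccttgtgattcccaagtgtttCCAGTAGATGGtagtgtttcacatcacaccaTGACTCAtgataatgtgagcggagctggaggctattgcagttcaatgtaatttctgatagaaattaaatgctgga
Dlc1: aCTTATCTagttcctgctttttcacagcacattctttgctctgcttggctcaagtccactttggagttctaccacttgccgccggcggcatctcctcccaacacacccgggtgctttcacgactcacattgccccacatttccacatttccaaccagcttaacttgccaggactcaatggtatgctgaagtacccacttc
Art3: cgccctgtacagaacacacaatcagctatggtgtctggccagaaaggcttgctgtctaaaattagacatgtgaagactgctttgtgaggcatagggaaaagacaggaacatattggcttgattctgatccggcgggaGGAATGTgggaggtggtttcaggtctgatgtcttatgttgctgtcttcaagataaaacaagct
Mtrr: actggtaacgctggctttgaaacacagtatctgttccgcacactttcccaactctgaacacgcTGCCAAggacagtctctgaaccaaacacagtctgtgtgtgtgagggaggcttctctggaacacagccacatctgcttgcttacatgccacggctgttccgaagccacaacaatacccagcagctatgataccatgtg
Nlgn1: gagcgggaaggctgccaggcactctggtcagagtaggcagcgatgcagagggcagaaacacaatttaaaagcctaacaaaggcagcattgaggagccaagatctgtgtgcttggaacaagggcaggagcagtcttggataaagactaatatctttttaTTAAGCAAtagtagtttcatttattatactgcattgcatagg
Ptprd: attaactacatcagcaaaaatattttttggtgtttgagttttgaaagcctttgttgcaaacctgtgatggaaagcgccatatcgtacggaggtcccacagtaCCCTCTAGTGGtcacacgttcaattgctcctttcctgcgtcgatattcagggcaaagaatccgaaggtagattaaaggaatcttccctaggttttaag
The first, second and last of these windows hold a CTCF match, and the second also holds an AP-1 match. The Klhl32 and Ascc3 windows each hold a RUNX match too, as AACCACA on the strand shown, left in lower case. The Nlgn1 window holds a C/EBP match, and the GATA match of Dlc1 lies at the edge of its window.

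The first question was how strong the control peaks in these regions were. They were weaker than control peaks in intronic regions with a peak in all 4 libraries. The median −log10 q-value was 5.24 in control 1 and 5.48 in control 2, against 8.37 and 11.0 in the 12711 regions open in all 4. The median fold over local background was 3.66 and 3.87 in control-only regions, against 4.26 and 4.96. At the median control-only summit 20 reads overlapped in control 1 and 19 in control 2. Of the 20304 intronic regions with a peak in both controls, 12711 (62.6%) had a peak in both BPA libraries, 3326 (16.4%) in BPA 2 alone and 793 (3.91%) in BPA 1 alone. The control-only regions were the remaining 17.1%. Their share depended on strength. It was 1.68% among regions within the best 25% of both control lists, where 45 were found, and 31.6% among those ranked beyond 75%, which held 1441. A missing peak in the BPA lists is therefore a missing call, and the lists give no signal outside peaks.

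**Figure D1:**
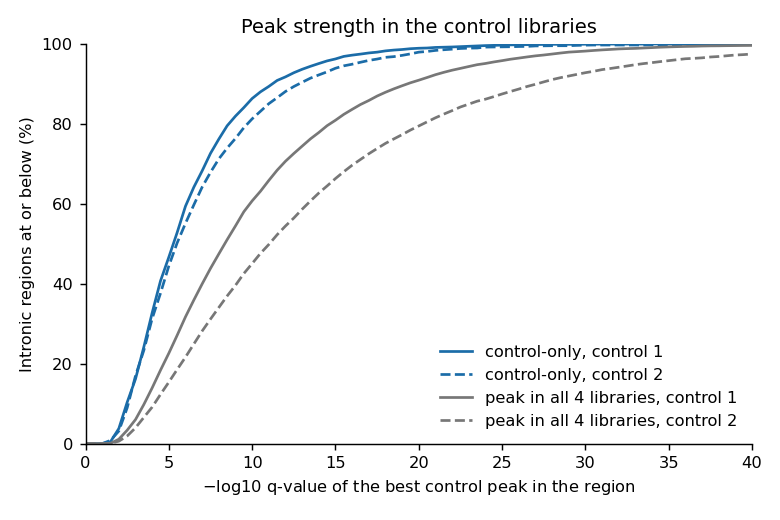
Cumulative percent of intronic regions (y axis) against the −log10 q-value of the best control peak in the region (x axis, shown to 40), for the 3474 control-only regions and the 12711 regions with a peak in all 4 libraries, with 1 curve per control library. The control-only curves rise earlier, with medians of 5.24 and 5.48 against 8.37 and 11.0.

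Agreement between the control replicates was compared with that in regions open in all 4 libraries. The median distance between the control 1 and control 2 summits was 68.5 bp in control-only regions and 67 bp in regions open in all 4. Summits lay within 50 bp in 38.4% of control-only regions (95% Wilson interval 36.8 to 40.03%) and in 40.1% of regions open in all 4. Peaks shared at least 50% of both lengths in 61.5% (59.9 to 63.1%) against 73.4%. Among the best-ranked 1158 control-only regions the median summit distance was 49.5 bp, and among the lowest-ranked 1158 it was 106 bp. Local background was low at most of them, with a median of 1.499 and 1.43 times the lowest of the library, and 193 regions exceeded 3 times in both controls.

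Regions near the limits of the definition were looked at by name. The control-only region nearest to a start site lay in Pank3 (chr11:35782902-35783310), which encodes a pantothenate kinase, 506 bp from the start of the microRNA gene Mir103-1, with folds of 2.72 and 4.61. A region of Crls1 (chr2:132848219-132849390), the cardiolipin synthase gene, was left out at 485 bp with folds of 3.23 and 4.78. In all, 50 otherwise alike regions lay within 500 bp of a start site. The weakest control peak that counted was in Rabgap1l (chr1:160410804-160411071), with a −log10 q-value of 1.31 in control 1. The weakest BPA peak that kept a region out was in Cdc42ep3 (chr17:79342778-79343757) at 1.38, and 46 regions were kept out by a best BPA peak under 2. A BPA peak lay within 500 bp of 163 control-only regions, and the median distance to the nearest BPA peak was 5471 bp.

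The 10 best-ranked regions illustrate the strongest control-only sites. The Klhl32 region (chr4:24720564-24721337) lay in intron 4 of 9, 130.2 kb from the nearest start site. Its fold was 8.15 in control 1 and 8.95 in control 2, and the summits lay 5 bp apart. Ascc3 (intron 11 of 41) had folds of 7.35 and 8.26. Both had a G+C content under the median, 36.8% and 33.8%. In Cfap45 (chr1:172528639-172529102), a gene of motile cilia, folds were 5.64 and 6.07 with summits at the same base. Dlc1 (intron 5 of 17) had folds of 5.41 and 7.80, with a BPA peak 0.876 kb away, the nearest among these 10. In Nlgn1 (chr3:25903086-25903736) the region sat in a 473 kb intron, 251 kb from a start site, with folds of 7.17 and 8.87 and no BPA peak within 249 kb. Art3 and Mtrr had regions close to a start site, at 2.74 and 3.90 kb. The list closed with Gm29536, a predicted gene, Syne1, which encodes the nuclear envelope protein nesprin, and Cntn6, a contactin of developing neurons. The Cntn6 region (chr6:104613705-104614336) had folds of 7.46 and 7.89, and the nearest BPA peak was 931 kb away. The ranks of the 10 ran from 11.5 to 17.8%.

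Control-only regions were lower in G+C than the other intronic classes. Their median G+C content was 42.9%, against 48.4% in BPA-only regions, 47.0% in regions open in all 4 and 45.7% in all distal intronic regions. Control-only intergenic regions had a median of 42.2%. The distal intronic regions were sorted by G+C and split into 5 bins holding equal numbers. Control-only regions made up 9.07% of the lowest bin and 2.33% of the highest. BPA-only regions ran the other way, from 3.02% to 17.1%. The control-only minus BPA-only difference in median G+C was -5.54 percentage points, and ran from -6.40 to -3.69 under the 13 alternatives tried. The libraries themselves differed in G+C. Intronic regions with a peak in a library had a median G+C of 45.01% and 45.5% in controls, 47.7% in BPA 1 and 46.7% in BPA 2. In regions with a peak in a single library, none of which is control-only, the medians were 41.5%, 43.4%, 49.1% and 46.2% in the same order. Both controls lay under both BPA libraries there too, but regions in a single control also lack a peak in both BPA lists, as control-only regions do. The part of G+C in the peak calls was not tested.

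**Figure D2:**
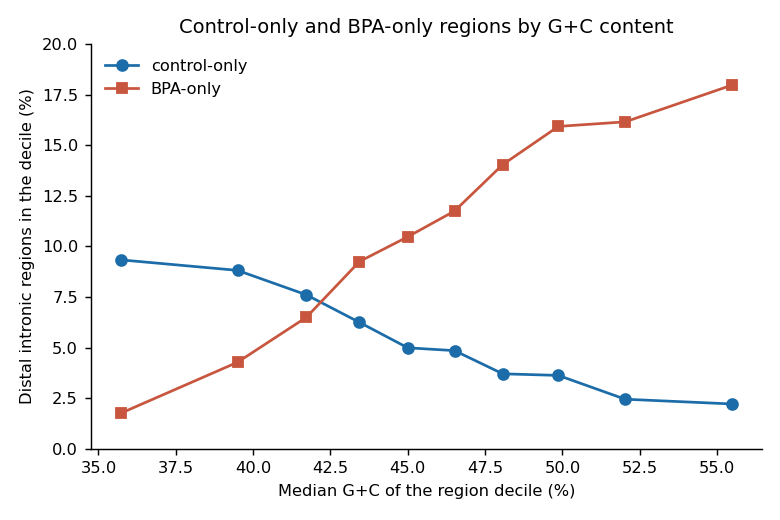
Percent of distal intronic regions that were control-only (circles) or BPA-only (squares) on the y axis, in 10 groups of equal size by G+C content, placed on the x axis at the median G+C of each group. Control-only regions fall from 9.33% to 2.21% and BPA-only regions rise from 1.77% to 17.97%.

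Control-only regions lay in longer introns and farther from start sites. The median intron that held one was 29.1 kb long, against 22.4 kb for BPA-only regions and 24.3 kb for all distal intronic regions. The median distance from the nearest start site was 34.6 kb, against 27.4 and 29.1 kb, and 20.7% of control-only regions lay over 100 kb from any start site, against 12.0% and 15.4%. They did not lie deeper in their host transcripts. The median position, as a fraction of transcript length from the start, was 0.473 in control-only, 0.498 in BPA-only and 0.487 in all distal intronic regions. The position in the order of introns was alike. First introns held 28.5% of control-only regions (27.0 to 30.1%), 28.01% of BPA-only and 28.3% of all. Repeat content was alike as well, with a median of 10.4% of bases masked in control-only regions, 10.0% in BPA-only regions and 10.6% of all. Control-only regions were 612 bp wide at the median, against 749 bp for BPA-only regions and 1108 bp for regions open in all 4.

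Host genes were then counted. The 3474 regions lay in 2336 genes, and 53 regions had more than 1 host. A single control-only region was found in 1659 genes, 2 or more in 677, 3 or more in 273, 5 or more in 64 and 10 or more in 6. BPA-only regions lay in 3692 genes, of which 35 held 10 or more. The 1003 genes with both kinds made up 42.9% of control-only hosts and 27.2% of BPA-only hosts. Host genes were long, with a median of 98.2 kb, against 68.3 kb for BPA-only hosts and 38.1 kb for all genes with a distal intronic region. Genes with more distal intronic regions are likelier to host a region of any subset, and a smaller subset favours them more. These lengths, and the promoter shares that follow, were not adjusted for that. The promoters of the hosts were mostly open in both groups. A promoter peak was present in all 4 libraries in 74.7% of control-only hosts (72.9 to 76.5%), 73.7% of BPA-only hosts and 67.4% of all hosts, and in no library in 13.4% of control-only hosts. Promoter peaks were found in the control pair alone in 26 of the 2336 control-only hosts and in the BPA pair alone in 45. The same counts were 19 and 129 among the 3692 BPA-only hosts, and 59 and 327 among all 11532 genes with a distal intronic region.

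The 10 genes with most control-only regions were between 535 and 2271 kb long, and 3 of them (Ptprd, Negr1 and Nrxn3) are on the list of synaptic and neural adhesion genes described further on. Together they held 107 control-only regions (3.08% of the total) and 11 BPA-only regions. The 10 genes with most BPA-only regions, led by Frmd4a, Prkce and Cdh13, held 143 BPA-only and 12 control-only regions. Both lists were chosen by their counts, which are given as a description. Which 10 genes lead depended on the peak list: 10 of 10 stayed when the start-site distance was 1000 bp, 8 with equal numbers of peaks, 4 with peaks of a −log10 q-value from 5 up and 4 with the best 20000 peaks.

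Ptprd (chr4:75941237-78211742) is a receptor tyrosine phosphatase that organises synapses. It held 16 control-only and 0 BPA-only regions among 99 distal intronic regions. Of the 99, control 1 had a peak in 59, control 2 in 64, BPA 1 in 13 and BPA 2 in 23. These counts include the 16 control-only regions, which by definition add to both controls and to neither BPA library. The folds of its 16 control-only regions ran from 2.01 to 5.03 in control 1 and from 2.60 to 5.95 in control 2. They spread over 1567 kb, and the best one ranked at 43.5%. The promoter of Ptprd had a peak in control 2 alone.

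Dlg2 (chr7:91090786-92449246), a scaffold protein of the postsynaptic density, held 15 control-only and 0 BPA-only regions among 62. Peaks were present in 45 and 39 of its regions in controls, against 8 and 11 in BPA libraries. Fold medians were 4.39 and 4.67, and the best region (chr7:92104662-92105936) ranked at 27.3%. Macrod2, an ADP-ribosylhydrolase, had 11 control-only and 2 BPA-only regions among 75. Its libraries had peaks in 47 and 50 regions in controls and in 14 and 26 in BPA. Negr1, a neuronal growth regulator, held 10 control-only and 1 BPA-only region among 49. Peaks were called in 26 and 39 of them in controls and in 6 and 14 in BPA libraries. Nrxn3, a presynaptic neurexin, had 9 control-only and 0 BPA-only regions among 42, with peaks in 19 and 27 regions in controls and in 6 and 14 in BPA. As in Ptprd, these counts include the control-only regions by which the genes were chosen.

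The counts of Sorcs1, Sntg1, Plcb1, Anks1b and Pde4d likewise include the control-only regions by which these genes were chosen. In each BPA library, Sorcs1 and Sntg1 had a peak in at most 1 of their distal intronic regions. Sorcs1 (chr19:50143301-50678646), a sorting receptor, had 18 distal intronic regions, of which 9 (50%) were control-only. Control 1 had a peak in 15 of the 18, control 2 in 13, BPA 1 in 0 and BPA 2 in 1. Its promoter nevertheless had a peak in all 4 libraries. Sntg1 (chr1:8359739-9299877), a syntrophin, had 26 regions, of which 8 were control-only. Peaks were called in 17 and 18 of the 26 in controls and in 0 and 1 in BPA libraries. Sntg1 had no promoter peak in any library. At the other end was Plcb1, a phospholipase C, where 10 control-only regions stood beside 5 BPA-only ones, and where peaks were called in 38 and 36 regions in controls, 23 in BPA 1 and 37 in BPA 2. The BPA 2 count of Plcb1 thus lay between the control counts. Anks1b, a postsynaptic ankyrin repeat protein, had peaks in 37 and 43 of 57 regions in controls and in 16 and 28 in BPA. Pde4d, a phosphodiesterase that degrades cAMP, had 9 control-only and 1 BPA-only region among 88, and its promoter had a peak in both controls and in neither BPA library.

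**Figure D3:**
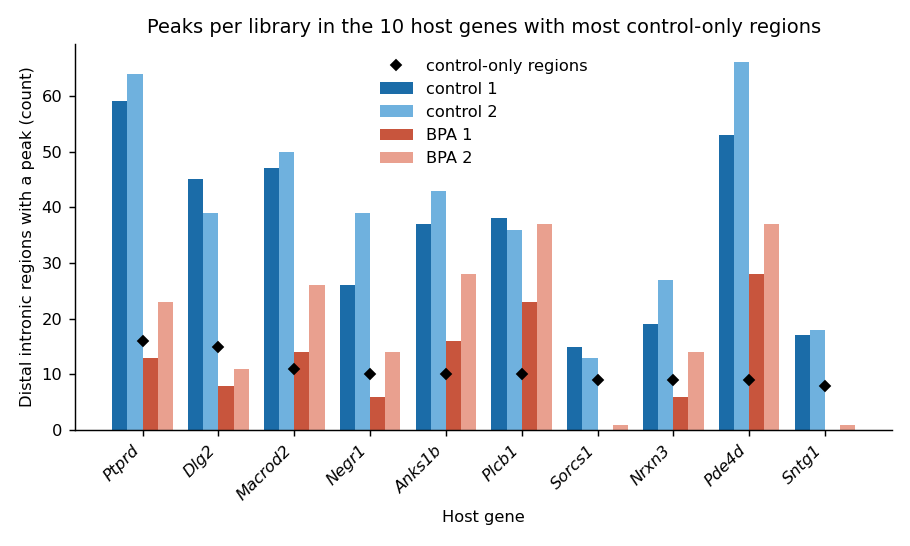
Number of distal intronic regions with a peak (y axis) in each of the 4 libraries (bars) for the 10 host genes with most control-only regions (x axis), with diamonds for the control-only regions. The bars include the control-only regions by which the genes were chosen, and in Plcb1 BPA 2 reached 37 beside 38 and 36 in controls.

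Gene functions were compared by shares matched on G+C, because base composition differed between the classes. For each of 23 lists of genes, the share of control-only regions with a host on the list was set beside the share among all distal intronic regions, weighted to the G+C distribution of the control-only regions. The 2 shares were close for most lists. The matched share lay inside the 95% Wilson interval of the control-only share for 21 lists, under it for 1 and above it for 1. All lists together hosted 12.4% of control-only regions (11.4 to 13.5%), against a matched 12.1%.

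Synaptic and neural adhesion genes, which join neurons to each other and to their surroundings, were the list whose matched share lay under the interval of the control-only share. They hosted 114 control-only regions, 3.28% of the total (2.74 to 3.93%). The matched share was 2.21%, or 2.35% when intron length was matched too. Of the 1076 distal intronic regions in these genes 10.6% were control-only, against 5.38% of all distal intronic regions, and 2.88% were BPA-only, against 10.8% of all. Of 47 genes of the list with a distal intronic region, 31 had a control-only region and 18 a BPA-only one. Among all 11532 such genes, 2336 and 3692 had one. These gene counts were not adjusted for regions per gene, with 1076 distal intronic regions in the list's genes and 64531 in all. In the list, 29 genes had more control-only than BPA-only regions, 9 had fewer, 1 had as many and 8 had neither. That last count was not made over all genes and was not matched on G+C. Ptprd, Negr1 and Nrxn3 made up 30.7% of the 114. Without Ptprd the list still hosted 2.83%. Other examples were Nlgn1 (6 control-only, 0 BPA-only), Cadm2 (6 and 0) and Cntn1 (5 and 0), whereas the teneurin Tenm4 had 1 and 6.

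The excess over the matched share changed with BPA 2 and with the peak list. With the best 20000 peaks of each list the share was 1.96% (1.28 to 2.97%), 0.401 percentage points above the matched share, which then lay inside the interval. When BPA 2 was left out, 2.27% of control-only regions lay in these genes, and the difference from the matched share went from 1.07 percentage points to -0.00176. Without BPA 1 it was 0.813 points, without control 1 it was 1.91 points and without control 2 it was 1.59 points. Regions with a peak in a single library, none of which is control-only by the definition, were looked at as well. Those in a single control share with control-only regions the lack of a peak in both BPA lists. They count as control-only when the other control is left out, so they are no independent check. Among these the list made up 3.74% (control 1), 4.06% (control 2), 0.826% (BPA 1) and 0.987% (BPA 2).

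**Figure D4:**
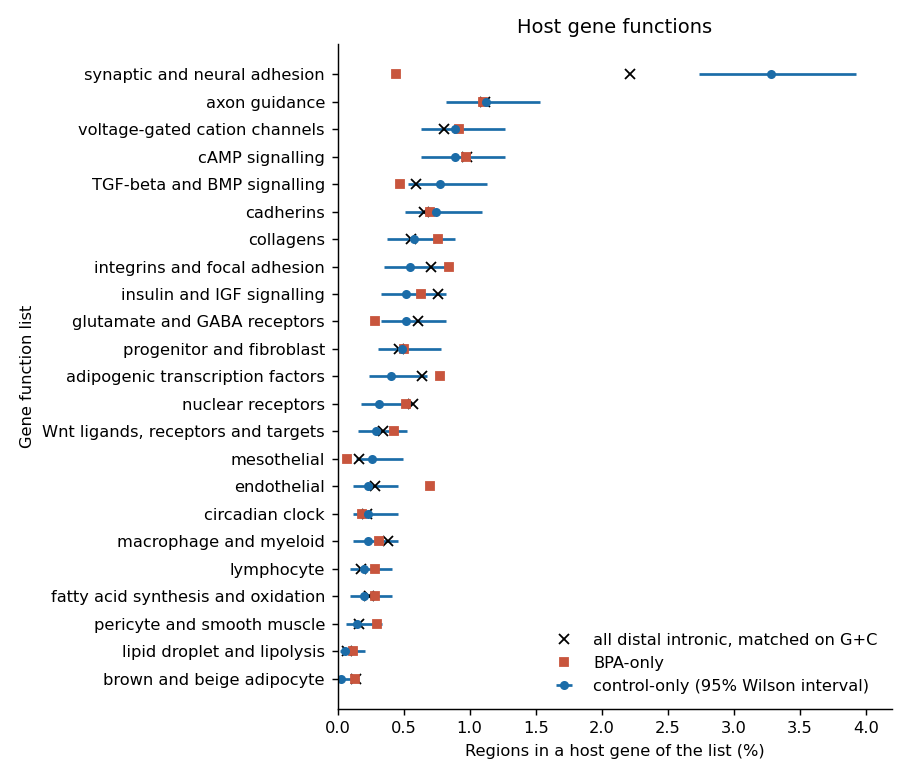
Percent of regions whose host gene is on each of 23 lists (y axis). Circles with 95% Wilson intervals are control-only regions, squares are BPA-only regions (not matched), and crosses are all distal intronic regions matched on G+C. Synaptic and neural adhesion genes stand at 3.28% in control-only regions, 2.21% after matching and 0.444% in BPA-only regions.

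For the lists of adipocyte genes the matched share lay inside the interval of the control-only share. Adipogenic transcription factors hosted 14 control-only regions among 454 (3.08%, beside 5.38% of all distal intronic regions) and 54 BPA-only ones (11.9%, beside 10.8%). Their share of control-only regions was 0.403% (0.240 to 0.675%), against a matched 0.636%. The regions lay mostly in Nfia (5) and Nfib (3), which encode nuclear factor I proteins and also held 8 and 4 BPA-only regions. Lipid droplet and lipolysis genes hosted 2 of 73, in Abhd5, a lipase co-activator, and Lpl, the lipoprotein lipase. Fatty acid genes hosted 7 of 167, among them 2 each in Me1, the malic enzyme, and Cd36, a fatty acid carrier. Brown and beige adipocyte genes hosted 1 of 115, in Tbx15, and 9 BPA-only regions (7.83%). Their control-only share of 0.0288% (0.00508 to 0.163%) held the matched 0.136% in its interval.

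Signalling genes hosted control-only regions at shares between 3.01% and 6.77%, beside 5.38% of all distal intronic regions. Insulin and insulin-like growth factor genes hosted 18 of 466, with 3 in Tbc1d4, a regulator of glucose transporter traffic. In cAMP signalling the number was 31 of 580 (5.34%), of which 9 lay in Pde4d and 4 in Pde3a. Transforming growth factor beta and bone morphogenetic protein genes hosted 27 of 399 (6.77%), with 33 BPA-only regions. Bmpr1b, a receptor of the family, had 7 control-only and 0 BPA-only regions among 15, and Bmper, a secreted binding protein, had 7 and 2 among 39. Axon guidance genes hosted 39 of 712 (5.48%), led by Efna5 (5) and Sema3a (4), both with 0 BPA-only regions. Wnt genes hosted 10 of 265, and 3 of these lay in Ror1, which also had 3 BPA-only regions. Nuclear receptor genes, ligand-controlled transcription factors, were the list whose matched share lay above the interval, by a narrow margin. They hosted 11 of 365 (3.01%), or 0.317% of control-only regions (0.177 to 0.566%) against a matched 0.574%, with 2 each in Thrb and Rora. Circadian clock genes hosted 8 of 159.

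Other cell types of the tissue were covered by lists of their own. Endothelial genes hosted 8 control-only regions of 207 (3.86%) and 49 BPA-only ones (23.7%, against 10.8% of all), beside the endothelial promoters that had a peak in 2, 2, 6 and 6 of 6 cases in control 1, control 2, BPA 1 and BPA 2. Their part in the result was not tested. Mmrn1, a multimerin gene, had 3 control-only regions. Pericyte and smooth muscle genes hosted 5 of 119 and 21 BPA-only. Mesothelial genes hosted 9 control-only regions of 85 (10.6%) and 5 BPA-only (5.88%). The control-only ones lay in Gpm6a (5, among its 33 regions), the uroplakin gene Upk1b (2), Upk3b (1) and Aldh1a2 (1). The BPA-only ones lay in Sulf1 (3), Wt1 (1) and Gata4 (1), each with 0 control-only regions. Mesothelial promoters with a peak numbered 2, 2, 2 and 1 of 3, with Msln at none in any library. The mesothelial share of 0.259% (0.136 to 0.492%) held the matched 0.162% in its interval. Progenitor and fibroblast genes hosted 17 of 274, macrophage genes 8 of 225, lymphocyte genes 7 of 123 and collagens 20 of 372, with 3 each in Col4a3 and Col5a2.

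For the other lists of excitable and adhesive proteins the matched share lay inside the interval of the control-only share. Glutamate and GABA receptor genes hosted 18 control-only regions of 325 (5.54%), of which 6 lay in Grin2a, a subunit of the NMDA receptor. Voltage-gated channel genes hosted 31 of 527 (5.88%), with 4 each in Kcnip4 and Cacna2d3. Cadherins hosted 26 of 374 (6.95%), with 6 in Cdh12 and 5 in Pcdh15. Integrin and focal adhesion genes hosted 19 of 534 (3.56%), led by Lpp with 4 control-only and 4 BPA-only regions.

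Motifs at the summits were compared next, as a feature that the definition did not use. Each of 19 motifs was searched on both strands of 200 bp windows centred on the best summit. For several motifs the share in control-only regions differed from that in all distal intronic regions of like G+C. The matched share lay under the 95% interval of the control-only share for 7 motifs, above it for 4 and inside it for 8. A match is a stretch of letters and not a binding event. Shares of BPA-only windows and of windows open in all 4 are not matched on G+C unless this is said.

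Nuclear factor I (NFI) proteins, which act in adipocyte enhancers, recognise a site with the letters TTGGCA. It was present in 25.8% of control-only windows (24.4 to 27.3%), against 18.6% of all distal intronic windows, 18.6% after matching, 22.3% of windows open in all 4 and 14.6% of BPA-only windows. The GATA motif AGATAAG was found in 6.33% (5.57 to 7.19%), against 3.22% of all, a matched 3.49% and 2.41% of BPA-only windows. TEAD factors, partners of the Hippo pathway, have the motif ACATTCC, which occurred in 7.11% (6.30 to 8.01%), against 4.59% of all and a matched 4.66%. It occurred in 4.19% of BPA-only windows, or 4.38% matched on G+C. The C/EBP motif TTGCNNAA was present in 15.9% of control-only windows, against 13.1% of all and a matched 14.2%. It was present in 10.0% of BPA-only windows, or 12.8% matched on G+C. STAT sites (TTCNNNGAA) were found in 9.27%, against 7.67% of all and a matched 8.16%.

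Longer motifs were searched by name. CTCF, which anchors chromatin loops, matched 6.28% of control-only windows (5.52 to 7.13%), against 3.57% of all, a matched 3.39% and 2.08% of BPA-only windows. Its share followed strength, from 10.0% in the best-ranked 1158 regions to 3.54% in the lowest-ranked 1158. The full palindrome of glucocorticoid and androgen receptors matched 39 windows or 1.12% (0.822 to 1.53%), against 0.575% of all, a matched 0.551% and 0.244% of BPA-only windows. The best-ranked region with that match lay in Lsamp, a neural adhesion gene (chr16:41745086-41745727), with folds of 6.46 and 7.08. BPA is a weak ligand of estrogen receptors, whose palindrome matched 1 control-only and 2 BPA-only windows, too few for a comparison. The PPAR-RXR repeat matched 9 windows, 0.259%, against a matched 0.166%.

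SOX, E-box and EBF motifs had lower shares in control-only regions. SOX (ACAATG) was found in 8.18% (7.31 to 9.13%), against 10.6% of all, a matched 11.6% and 13.7% of BPA-only windows (15.9% matched on G+C). The E-box CAGCTG was present in 11.3%, against 14.7% of all, a matched 12.6% and 18.98% of BPA-only windows (16.1% matched on G+C). EBF core sites (CCCNNGGG), the motif of early B-cell factors that also act in adipocytes, occurred in 3.77%, against 6.64% of all and a matched 5.16%. BPA-only windows held them in 9.23%, or 6.52% matched on G+C. ETS sites (CCGGAAG), used by endothelial and blood cell factors, were at 0.921%, against 1.16% of all and a matched 0.893%. They were at 2.08% of BPA-only windows, or 1.60% matched on G+C. For AP-1 (TGANTCA) the share of 11.3% lay beside 10.7% of all, a matched 10.9% and 13.2% in BPA-only windows. The GC box (GGGCGG) stood at 3.20%, with 4.60% of all and a matched 3.20%. RUNX (TGTGGTT), at 4.43% against 5.04% of all, was the other motif whose matched share, 5.19%, exceeded the interval. FOX (TGTTTAC), MEF2 and CRE (TGACGTCA) stood at 3.80%, 3.57% and 0.144%, with matched shares of 3.46%, 4.05% and 0.176%, and 3.16%, 3.26% and 0.209% of all.

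The motif shares were also set against regions of like strength. When regions open in all 4 libraries were weighted to the same ranks in the control lists (10 bins) and the same G+C, they held NFI sites in 21.3%, GATA in 2.47%, TEAD in 5.21%, CTCF in 3.42% and the glucocorticoid and androgen receptor palindrome in 0.455% of windows. The control-only shares of 25.8%, 6.33%, 7.11%, 6.28% and 1.12% lay above each of these. For C/EBP the value was 15.3%, inside the control-only interval of 14.8 to 17.2%. Matched on G+C alone, regions open in all 4 held NFI sites in 24.2%, GATA in 2.76%, TEAD in 5.44% and CTCF in 4.42%. Each of these lay under the control-only interval. The receptor palindrome was then at 0.884%, inside its control-only interval of 0.822 to 1.53%, and C/EBP at 17.1%, also inside. Outside genes, the 3849 control-only intergenic regions, 6.39% of distal intergenic ones, held NFI sites in 24.0%, GATA in 6.26%, TEAD in 7.09% and CTCF in 8.99% of windows. At least 1 of NFI, GATA, TEAD, CTCF and the receptor palindrome was present in 1446 control-only windows (41.6%). The motifs rarely came together, since 56 windows had both NFI and GATA and 10 had both GATA and TEAD.

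The direction of the motif shares was checked against each alternative. NFI, GATA and TEAD stayed above the matched share in all 14, by 0.262 to 9.03, 0.121 to 3.85 and 0.293 to 2.55 percentage points, and SOX stayed under it in all 14, with differences from -4.71 to -0.958 points. The CTCF excess of 2.89 points was lost without a control library, at -0.224 points without control 1 and -0.679 without control 2, where the regions then need a peak in a single control. The C/EBP excess of 1.73 points was lost without control 2, at -1.78 points. NFI was at its smallest, 0.262 points, without control 2, and 2.17 points without control 1. Among the best 20000 peaks the differences of GATA, TEAD and SOX were 0.121, 0.579 and -0.958 points.

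**Figure D5:**
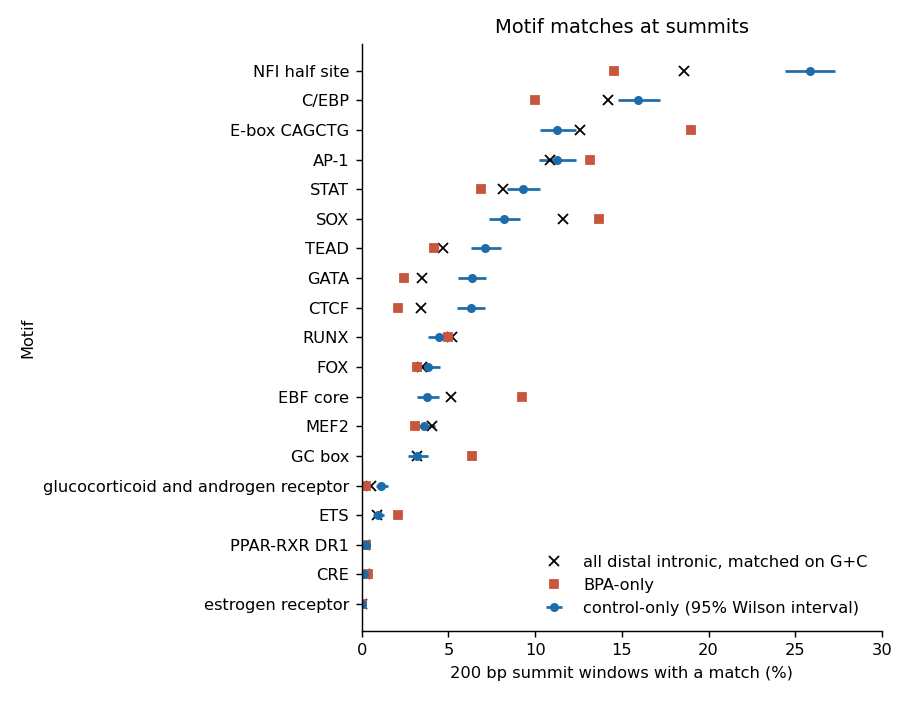
Percent of 200 bp summit windows with a match (x axis) to each of 19 motifs (y axis). Circles with 95% Wilson intervals are control-only regions, squares are BPA-only regions (not matched), and crosses are all distal intronic regions matched on G+C. NFI sites stand at 25.8% in control-only regions, 18.6% after matching and 14.6% in BPA-only regions, and the E-box CAGCTG at 11.3%, 12.6% and 18.98%.

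The number of control-only regions depended on the number of libraries and peaks used. It was 11397 without control 1, 10875 without control 2, 4275 without BPA 1 and 6964 without BPA 2, and fell to 1755 with peaks of a −log10 q-value from 5 up and to 1073 with the best 20000 peaks of each list. With equal numbers of peaks it was 3762.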

How the data were processed

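ATAC-seq reads of 2 control and 2 BPA libraries were trimmed with Trim Galore, mapped to mm10 with Bowtie2 2.3.5.1, restricted to unique reads without duplicates (SAMtools) and given to MACS2 2.2.7.1, which called peaks in each library without pooling, as the study's methods and the submitters' processing notes state. Of the columns deposited by the authors, the score is the −log10 q-value times 10 without decimals. The ratio column, as deposited, holds the caller's fold of the pile-up at the summit over local background. The next columns give its −log10 p-value and the −log10 q-value used here for ranks, both as deposited, and the last gives the summit offset. Read totals were not used here, and whole-number pile-ups and backgrounds were solved from the fold and −log10 p-value, a step checked on simulated data.

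Regions, introns (43783 curated RefSeq transcripts, GRCm38) and G+C were computed with Python 3.11.15, pandas 2.3.3, scipy 1.17.1 and pysam 0.24.0. Matched shares weighted 5 G+C bins of equal size. Named were the 10 best-ranked regions, the 10 host genes with most control-only regions (ties by percent of their regions), up to 3 hosts per list and the regions nearest the limits. Other genes were named after their values were seen. The members, gene lists, motifs and rules were chosen with earlier results of these data known, and nothing was tested between groups. Some items are not reported here.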

Additional observations from a re-analysis of the deposited data

How the results depend on the processing

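Results were recomputed under 16 alternatives. With peaks of a −log10 q-value from 5 up there were 1755 control-only regions, 286 genes with several, a median G+C of 43.3%, a summit distance of 53 bp, 67.6% of host promoters with a peak in all 4 libraries and 26.6% of regions in first introns. The best 20000 peaks gave 1073, 145, 44.2%, 41 bp, 46.3% and 26.9% for the same values, 1328 BPA-only regions, and 1 list and 4 motifs whose matched share lay outside the interval. Equal numbers of peaks gave a summit distance of 62 bp and 72.8% of host promoters. Control peaks sharing 50% of both lengths gave 2136 regions, 383 genes, 43.3% and 62 bp. Merging within 100 bp and requiring no BPA peak within 500 bp each left 1 list outside. Leaving out a library gave 4275 to 11397 regions, 834 to 2301 genes with several and 9187 to 17429 BPA-only regions, as fewer lists then define a region. The G+C was then 42.0 to 43.5%, with 2 to 12 lists outside. The AP-1 difference from the matched share, 0.386 points, became -2.18 (−log10 q from 5 up), -2.20 (best 20000) and -1.03 (equal numbers), and -2.22 to 0.471 without a library. Without a library, CTCF ranged from -0.679 to 3.79, C/EBP from -1.78 to 2.66, the neural adhesion list from -0.00176 to 1.91 and the mesothelial list from -0.00645 to 0.219 points, and the mesothelial list was at -0.0661 with equal numbers. The cause was not tested. The lowest local background, a rough measure of depth, was 1.16 in BPA 1 and 3.80 in BPA 2. A missing peak is a missing call, and the part of depth in it was not tested. No paired analysis was possible because the results come from no test and the labels do not say that equal replicate numbers mark a shared animal, litter or day.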

Other observations

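Some host genes had control peaks at their promoters as well. The 26 control-only hosts with a promoter peak in both controls and in neither BPA library include Pcdh15, Cdh12, Cntn4, Scn3a, Cftr and Trp63. They also include Akr1c20, Ano5, Cd96, Txk and Trpm6, and all were named here after their values were seen. The opposite pattern, promoter peaks in the BPA pair alone, was held by 45 control-only hosts. Among the 3 epithelial promoters checked, Cdh1 had one in BPA 1 and BPA 2 and none in the controls, and Epcam had one in control 1, BPA 1 and BPA 2. The share of distal intronic regions that were control-only also varied by chromosome, from 3.79% on chromosome 11 to 7.32% on chromosome 3. On the same chromosomes the BPA-only share was 14.7% and 8.12%.

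The median distance to the nearest other control-only intronic region was 99982 bp, and 354 of them (10.2%) had one within 10000 bp.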
